A study of Mus musculus with 4 samples.

Results

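The mitochondrial genome transcripts are the RNAs made from the small circular genome inside mitochondria. Rows of the gene count table were taken where the chromosome was MT or the mouse symbol of the Ensembl gene began with mt-, and both criteria gave the same 37 of 37991 genes. They comprised 13 mRNA genes, 2 rRNA genes and 22 tRNA genes. RNA sequencing was done on mouse embryonic stem cells (mESC) null for both B-type lamins (dKO, 2 biological replicates) and on wild-type mESC (wt, 2 biological replicates). Lamins are filament proteins under the inner nuclear membrane. Lmnb1 and Lmnb2 encode the B-type ones. All 4 libraries carried the strain label ZHBTc4, a mouse embryonic stem cell line in which Pou5f1 can be switched off with tetracycline. No treatment is given in the labels, and they do not say whether each genotype was 1 clone, so lamin loss and a difference between lines cannot be told apart.

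The mitochondrial genome is transcribed from both strands as long precursors by the polymerase Polrmt with the factors Tfam and Tfb2m. The tRNAs lie between the longer genes, and their excision releases most mRNAs and rRNAs. The mRNAs encode core subunits of the respiratory chain and of ATP synthase, and the rRNAs and tRNAs serve the ribosomes of the organelle. All other mitochondrial proteins, including those that copy, cut and translate these RNAs, come from nuclear genes. Pluripotent stem cells are known for strong glycolysis beside respiration.

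In these data no mitochondrial transcript differed detectably between genotypes. Of the 37 genes, 26 passed the filter on low counts (12 mRNAs, 2 rRNAs and 12 tRNAs), and 0 of these 26 were called at 0.05 by edgeR (quasi-likelihood test, p adjusted over 14027 genes). Over all tested genes 12 were called (0.0855%), with 5 higher (0.0356%) and 7 lower (0.0499%) in dKO, so 0 calls among 26 genes is near the background. With the replicate number as a block, 9.26% of all genes and 1 of the 26, mt-Ts2, were called (edgeR adjusted p = 0.0299). The counts by DESeq2 and by limma-voom were also 0. At an unadjusted p under 0.05 there was 1 member, the serine tRNA mt-Ts2, against 5.57% of all genes. The p-values measure the spread between biological replicates, for which the labels give no culture or passage.

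Library totals were between 12899964 and 16697970 counts. Lmnb1, the targeted lamin gene, had 69 and 101 counts in dKO libraries and 8538 and 8321 in wt libraries. Lmnb2 had 41 and 55 counts in dKO libraries and 1343 and 1787 in wt libraries, so both targeted genes followed the genotype labels. The 10 stem cell markers summed to 6472 and 6911 CPM (counts scaled to library size with edgeR's TMM factors) in dKO libraries and 5607 and 5595 CPM in wt libraries, with Pou5f1 between 751 and 876 CPM in all 4. Without overlap, Zfp42, Esrrb, Klf4 and Fgf4 were higher in dKO and Dppa5a and Utf1 lower, against 17.2% and 16.4% of all tested genes. Zfp42 had 1449 and 1435 CPM in dKO libraries and 666 and 613 CPM in wt libraries. Of the 10 markers 0 were called by edgeR. Of the 10 fibroblast markers 9 were detected, S100a4 was at 0, and they summed to 7.0 and 7.8 CPM in dKO libraries and 10.3 and 14.1 CPM in wt libraries. Of the 10 blood and immune markers 7 were detected, with sums of 152 and 221 CPM in dKO libraries and 127 and 134 CPM in wt libraries. Laptm5 alone had 104 to 198 CPM, and Cd68 had 16.2 to 22.1 CPM. Csf1r reached 1.31 CPM and Ptprc 0.06 CPM, while Tyrobp, Hbb-bs and Hbb-bt were at 0. The part of these sums in the results was not tested.

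Several sequences bear on how the counts can be read. Neighbouring mitochondrial genes share bases, and reads over shared bases can be dropped or divided by counting. The end of mt-Atp8 (MT, 7910 to 7969, plus strand, positions as in both the table and GENCODE M21 on GRCm38) is shown with the 43 bases it shares with mt-Atp6 in capitals, and the end of mt-Nd4l (MT, 10114 to 10173) with the 7 bases it shares with mt-Nd4 in capitals:
mt-Atp8: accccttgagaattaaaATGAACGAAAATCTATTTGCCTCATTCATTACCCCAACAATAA
mt-Nd4l: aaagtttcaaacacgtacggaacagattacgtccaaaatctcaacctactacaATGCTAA

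The nuclear genome also holds copies of mitochondrial DNA. In GENCODE M21 transcripts, matches of at least 100 bases and 90% identity outside the mitochondrial genome were found for 11 of 13 mRNA genes. They were found for 0 rRNA genes. The tRNA genes, at 59 to 75 bases, are shorter than this minimum, so the search could not find copies of them. A run of copies on chromosome 1 (GRCm38, 24611535 to 24616197) matched 7 mRNA genes at 99% identity or more. Of mt-Nd3, the first 33 bases differed from the copy Gm28438 at 1 position, T3C (the mitochondrial base first, counted from the first base of the gene). The first 90 bases of mt-Co1 differed from the copy Gm13340 on chromosome 2 at 3 positions, C54A, A60G and G87A. The differing bases are in capitals:
mt-Nd3: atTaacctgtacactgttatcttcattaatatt
Gm28438: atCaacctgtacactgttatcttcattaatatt
mt-Co1: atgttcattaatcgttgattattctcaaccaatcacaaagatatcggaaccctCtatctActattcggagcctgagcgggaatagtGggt
Gm13340: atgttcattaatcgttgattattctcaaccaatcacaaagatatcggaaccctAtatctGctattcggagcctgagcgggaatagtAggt

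The tRNA genes with the lowest log2 fold changes were mt-Ts2, mt-Tg, mt-Tl2 and mt-Th, of which mt-Th, mt-Ts2 and mt-Tl2 lie side by side between mt-Nd4 and mt-Nd5 (MT, 11546 to 11612, 11613 to 11671 and 11671 to 11741, plus strand), and mt-Tg precedes mt-Nd3 (9391 to 9458, plus strand). The tRNA genes with the most counts were mt-Ts1 (6870 to 6938) and mt-Te (14071 to 14139) on the minus strand. They are shown with the anticodon in capitals, found by its place in a stem and loop:
mt-Th: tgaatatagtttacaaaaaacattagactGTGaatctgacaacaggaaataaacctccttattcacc
mt-Ts2: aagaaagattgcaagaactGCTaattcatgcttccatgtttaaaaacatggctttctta
mt-Tl2: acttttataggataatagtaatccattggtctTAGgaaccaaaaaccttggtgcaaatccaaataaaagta
mt-Tg: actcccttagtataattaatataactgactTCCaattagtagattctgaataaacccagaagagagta
mt-Ts1: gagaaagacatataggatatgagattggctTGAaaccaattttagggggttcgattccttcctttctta
mt-Te: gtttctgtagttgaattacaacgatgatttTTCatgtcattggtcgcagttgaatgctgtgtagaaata

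Mitochondrial genes took 3.08% and 3.84% of all counts in dKO libraries and 3.24% and 3.81% in wt libraries. The ranges overlapped, with both replicates 2 higher than both replicates 1. The mean was 3.46% ± 0.54 in dKO and 3.52% ± 0.40 in wt libraries (SD, n = 2 each; exact two-sided permutation test, p = 1). With 2 libraries against 2 this exact permutation test cannot go below p = 0.33. In RNA from whole cultures, fewer mitochondria and less RNA per mitochondrion cannot be told apart.

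Nearly all of this was mRNA. The mRNA genes took 3.05% and 3.82% of counts in dKO libraries and 3.21% and 3.77% in wt libraries (exact permutation p = 1). The rRNA genes took 0.0240% and 0.0224% in dKO libraries and 0.0243% and 0.0340% in wt libraries, without overlap, at the smallest p the test allows (exact permutation p = 0.33). The difference, dKO minus wt, was -0.00597 percentage points, and -0.00116 without wt replicate 2. In CPM the rRNA sums did overlap, with 245.8 and 221.7 in dKO libraries and 245.6 and 333.8 in wt libraries. The tRNA genes took 0.00518% and 0.00563% in dKO libraries and 0.00531% and 0.00618% in wt libraries, with overlap (exact permutation p = 0.667).

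**Figure D1:**
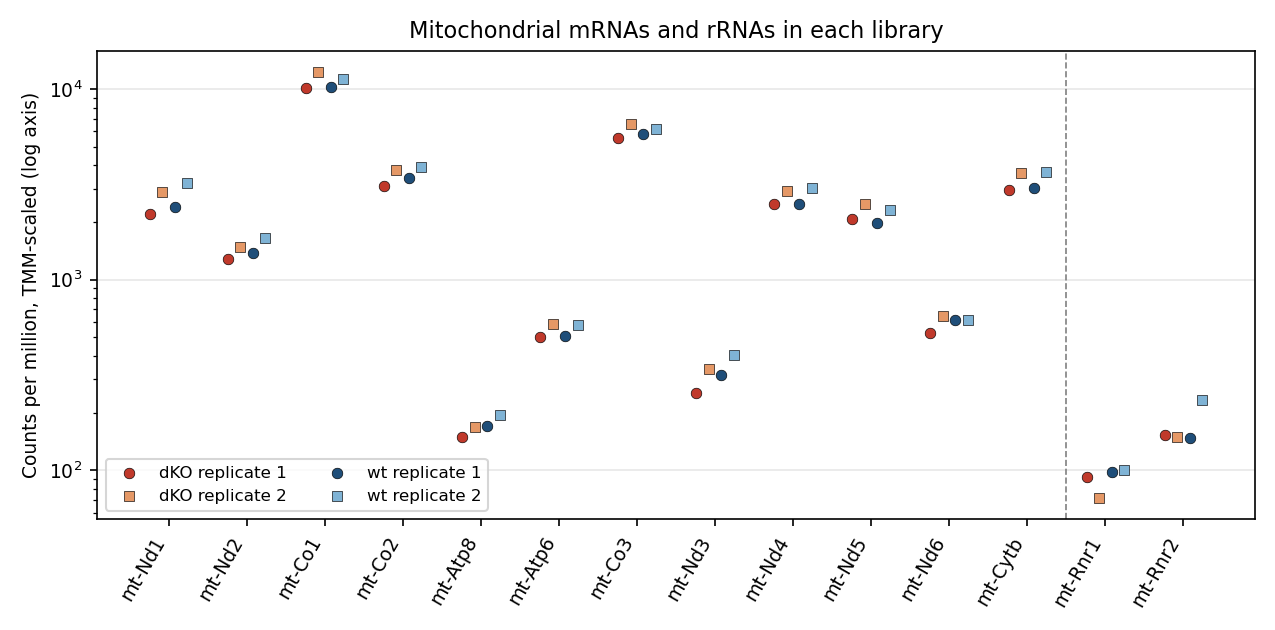
CPM, scaled by TMM, on a log axis for the 12 mitochondrial mRNA genes with counts in genome order and the 2 rRNA genes (right of the dashed line). Each point is 1 library, with dKO libraries left of wt libraries. Levels of replicate 2 lie above those of replicate 1 for all 12 mRNAs in dKO and for 11 of 12 in wt cells, while the genotypes overlap for 11 of 12.

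Complex IV, cytochrome c oxidase, passes electrons to oxygen, and its mitochondrial subunits had the highest levels. mt-Co1, the catalytic subunit, had 10106 and 12294 CPM in dKO libraries and 10245 and 11270 CPM in wt libraries, and was the gene with the most counts in each library (rank 1 of 37991). Its log2 fold change, dKO minus wt, was 0.06 (95% interval -0.34 to 0.46, edgeR adjusted p = 0.994). The dKO values enclosed the wt values.

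mt-Co2, which takes up electrons from cytochrome c, had 3118 and 3760 CPM in dKO libraries and 3409 and 3886 CPM in wt libraries (log2 fold change -0.08, interval -0.47 to 0.31). mt-Co3, a core subunit without a metal centre, had 5529 and 6554 CPM in dKO libraries and 5820 and 6150 CPM in wt libraries (0.01, interval -0.35 to 0.38). The genotypes overlapped for both. Summed, the 3 genes took 60.03% and 59.89% of mitochondrial mRNA counts in dKO libraries and 60.12% and 57.60% in wt libraries.

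Complex I, NADH dehydrogenase, has 7 subunits encoded here. mt-Nd1, at the joint of its membrane and matrix arms, had 2204 and 2874 CPM in dKO libraries and 2417 and 3232 CPM in wt libraries (-0.15, interval -0.67 to 0.36). mt-Nd2, a proton-pumping subunit, had 1288 and 1483 CPM in dKO libraries and 1385 and 1648 CPM in wt libraries (-0.13, interval -0.50 to 0.24). In both genes wt replicate 2 was the highest library and dKO replicate 1 the lowest, and the genotypes overlapped.

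mt-Nd3, a small membrane subunit, had 253 and 339 CPM in dKO libraries and 316 and 402 CPM in wt libraries. Its log2 fold change of -0.28 (interval -0.76 to 0.21, edgeR adjusted p = 0.967) was the lowest among the mRNAs, and the genotypes overlapped. mt-Nd4, another proton-pumping subunit, had 2493 and 2937 CPM in dKO libraries and 2491 and 3016 CPM in wt libraries (-0.02, interval -0.42 to 0.38). For mt-Nd4, libraries of the same number differed less than libraries of the same genotype.

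mt-Nd5, a proton-pumping subunit at the far end of the membrane arm, had 2095 and 2495 CPM in dKO libraries and 1980 and 2330 CPM in wt libraries. Its log2 fold change of 0.09 (interval -0.30 to 0.48, edgeR adjusted p = 0.990) was the highest among the mRNAs, and the genotypes overlapped. mt-Nd6, a membrane subunit and the single mRNA of the minus strand, had 528 and 647 CPM in dKO libraries and 618 and 613 CPM in wt libraries (-0.07, interval -0.42 to 0.28). The wt libraries lay between the dKO libraries.

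mt-Nd4l, the smallest complex I gene, was listed at 0 in all 4 libraries. The floor of 3 counts is 0.184 and 0.179 CPM in dKO libraries and 0.235 and 0.197 CPM in wt libraries, and covers counting error only. Of its 297 bases, 294 matched Gm10222 on chromosome 1 at 100% identity, and Gm10222 was also listed at 0 in all 4 libraries.

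Complex III is represented by mt-Cytb, which carries the haem groups that take part in quinol oxidation. It had 2970 and 3612 CPM in dKO libraries and 3032 and 3670 CPM in wt libraries (log2 fold change -0.03, interval -0.45 to 0.39, edgeR adjusted p = 0.995). Again the genotypes overlapped and both replicates 2 were high.

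Complex V, ATP synthase, has its proton channel subunit from mt-Atp6 and a small accessory subunit from mt-Atp8. mt-Atp6 had 502 and 586 CPM in dKO libraries and 509 and 576 CPM in wt libraries (0.0044, interval -0.34 to 0.35). mt-Atp8 had 149 and 169 CPM in dKO libraries and 171 and 194 CPM in wt libraries (-0.20, interval -0.52 to 0.13, edgeR adjusted p = 0.960). It was the single mRNA whose genotypes did not overlap, lower in dKO, which over all genes held for 16.4%.

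For the 12 mRNAs the log2 fold changes were between -0.28 and 0.09, 8 negative and 4 positive, with a median of -0.05 against -0.0019 over all 14027 genes. With 1 library left out the median was between -0.19 (without dKO replicate 2) and 0.086 (without dKO replicate 1), so its sign rests on single libraries. All 12 of the 95% intervals lay within 1 of 0, that is within a doubling or its inverse, which was so for 65.5% of all tested genes. Within a 1.5-fold change in either direction lay 10 of the 12 intervals, and 37.2% of those over all genes. The exceptions were mt-Nd1 and mt-Nd3. Interval width depends on counts, and the 12 mRNAs had from 2185 (mt-Atp8, wt replicate 1) to 206090 counts (mt-Co1, dKO replicate 2). The shares over all genes include genes with far fewer counts, so they are not a matched background.

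**Figure D2:**
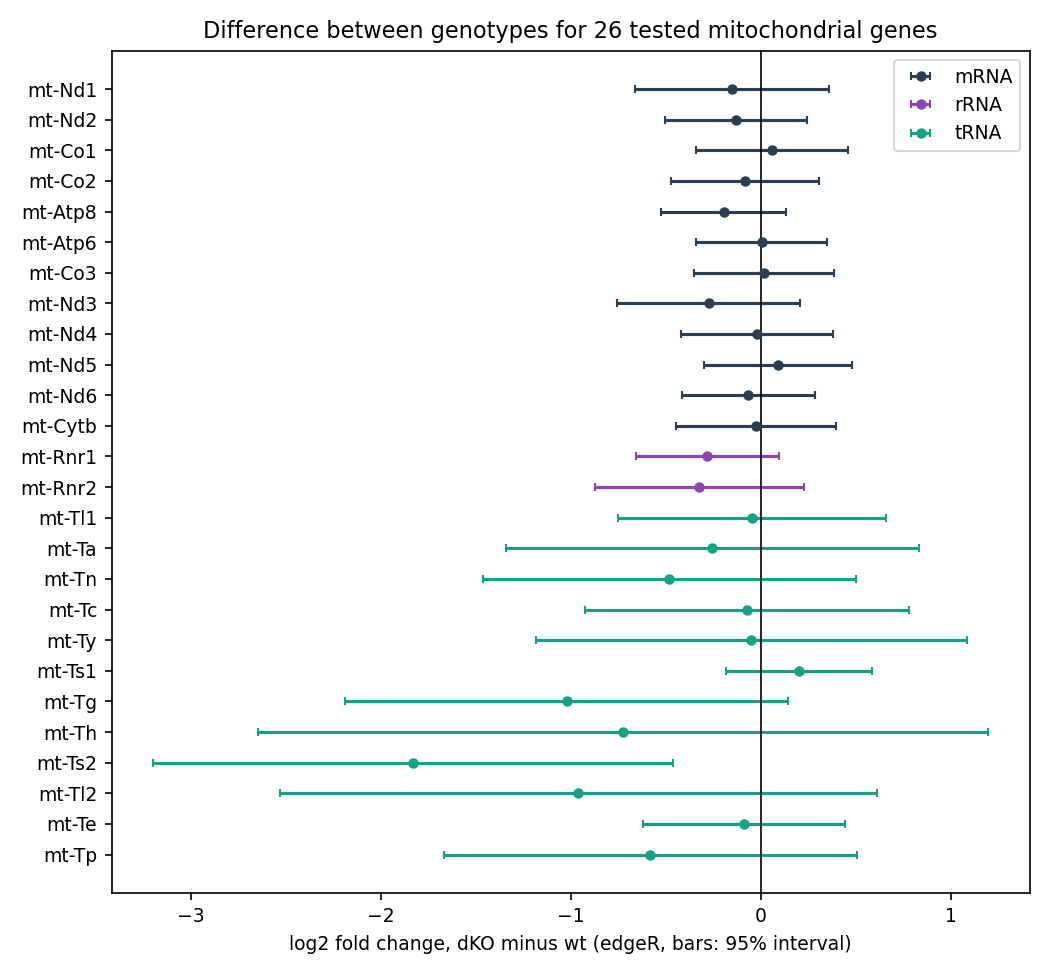
Log2 fold changes, dKO minus wt, from edgeR with their 95% intervals for the 26 mitochondrial genes that passed the low-count filter. Points of the mRNAs lie between -0.28 and 0.09, and the tRNA intervals are wider; the interval of mt-Ts2 alone lies wholly on 1 side of 0, at an adjusted p of 0.723 in edgeR.

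The rRNAs had far fewer counts than the mRNAs. mt-Rnr1, the small-subunit rRNA, had 91.9 and 72.0 CPM in dKO libraries and 98.3 and 101 CPM in wt libraries. The genotypes did not overlap, and the log2 fold change was -0.28 (SE 0.15, interval -0.66 to 0.10, edgeR adjusted p = 0.942). mt-Rnr2, the large-subunit rRNA, had 154 and 150 CPM in dKO libraries and 147 and 233 CPM in wt libraries. Here wt replicate 2 was high and the other 3 libraries lay close together, and the log2 fold change was -0.32 (SE 0.22, interval -0.88 to 0.23, edgeR adjusted p = 0.961). Without wt replicate 2 the value for mt-Rnr2 was 0.045.

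Levels of different genes can be compared only per length. Averaged over libraries, mt-Co3 stood first, followed by mt-Co1, mt-Co2, mt-Cytb and mt-Nd1. mt-Co3 had 7052 and 8360 CPM per kilobase in dKO libraries and 7424 and 7844 in wt libraries. mt-Co1 had 6541 and 7957 CPM per kilobase in dKO libraries and 6631 and 7294 in wt libraries. The ranges of these neighbours overlapped across libraries, while mt-Co3 was above mt-Co1 within each of the 4.

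mt-Co2 followed with 4558 and 5497 CPM per kilobase in dKO libraries and 4983 and 5681 in wt libraries, below both in each library. mt-Cytb (2596 to 3208 over the 4 libraries) and mt-Nd1 (2303 to 3377) overlapped, with mt-Cytb the higher in 3 of 4 libraries. The next were mt-Nd4 (1807 to 2189), mt-Nd2 (1241 to 1588), mt-Nd5 (1085 to 1368) and mt-Nd6 (1018 to 1246), where the ranges of mt-Nd2, mt-Nd5 and mt-Nd6 overlapped. Within each library mt-Nd2 was above both others, and mt-Nd5 was above mt-Nd6 in 3 of 4 libraries.

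At the low end were mt-Nd3 (728 to 1154 CPM per kilobase), mt-Atp8 (732 to 951) and mt-Atp6 (738 to 860), which overlapped, and the range of mt-Nd3 also overlapped that of mt-Nd6. These values divide by the full gene length. Not shared with another mitochondrial gene are 161 of 204 bases in mt-Atp8 and 637 of 681 in mt-Atp6, so their order can depend on the length used. Both rRNAs were lower still, with mt-Rnr2 at 97.3 and 94.6 CPM per kilobase in dKO libraries and 93.1 and 147 in wt libraries, and mt-Rnr1 at 96.2 and 75.4 in dKO libraries and 103 and 106 in wt libraries. The rRNA level is that of a library made with an Illumina TruSeq RNA kit, and whether poly(A) selection or rRNA removal was used is not given in the sources used here. GC content of the mRNA genes was between 31.9% and 41.1%.

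Levels per length, as counted, did not follow position along the precursor. Some plus-strand mRNA genes had no match at 99% identity or more in the annotated transcripts searched. In genome order these were mt-Nd1 (2303 to 3377 CPM per kilobase), mt-Nd2 (1241 to 1588), mt-Atp8 (732 to 951), mt-Nd5 (1085 to 1368) and mt-Cytb (2596 to 3208). The last 43 bases of mt-Atp8 lie in mt-Atp6, whose copy on chromosome 1 matched from its first base. Bases between the annotated copies were not compared, so a copy of mt-Atp8 there could not be seen. mt-Co3 exceeded its immediate neighbour mt-Atp6 by 9.56-fold and 9.72-fold in dKO libraries and 9.94-fold and 9.27-fold in wt libraries. Both genes have a copy on chromosome 1 that matches at 100% identity, over 783 of 784 bases in mt-Co3 and 678 of 681 in mt-Atp6, as does mt-Co2 over 681 of 684. Of these copies in GENCODE M21, Gm28437, Gm10925 and Gm28661, the table has no row by ID.

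The table does hold a row without a symbol on chromosome 1, at 24620814 to 24621627 in its own build. It begins 1275 bases past the end of Gm10222, where Gm10925 begins 1274 bases past it in GRCm38. The row spans 814 bases, more than Gm10925 (24613974 to 24614651 in GRCm38), and its sequence was not compared. The row had 1587 and 2061 counts in dKO libraries and 1264 and 1703 in wt libraries. These equal 19.40% and 20.99% of the mt-Atp6 counts in dKO libraries and 19.42% and 19.44% in wt libraries. Its log2 fold change was 0.06 (interval -0.32 to 0.45, edgeR adjusted p = 0.994). How counting treated reads that match several places is not given in the sources used here, and its part in the low levels of mt-Nd4l and mt-Atp6 was not tested.

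Copies that differ more from the mitochondrial gene had few counts. Gm13340, 97.6% identical to mt-Co1 over 1545 bases, had 61 and 80 counts in dKO libraries and 42 and 52 in wt libraries, at most 0.0388% of the mt-Co1 counts. Gm13341, a 95.9% identical copy of mt-Co2, had 14 and 23 counts in dKO libraries and 12 and 9 in wt libraries. The other copies with a row, Gm11407, Gm11408, Gm11410, Gm11512 and Gm13339, had at most 3 counts in any library.

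**Figure D3:**
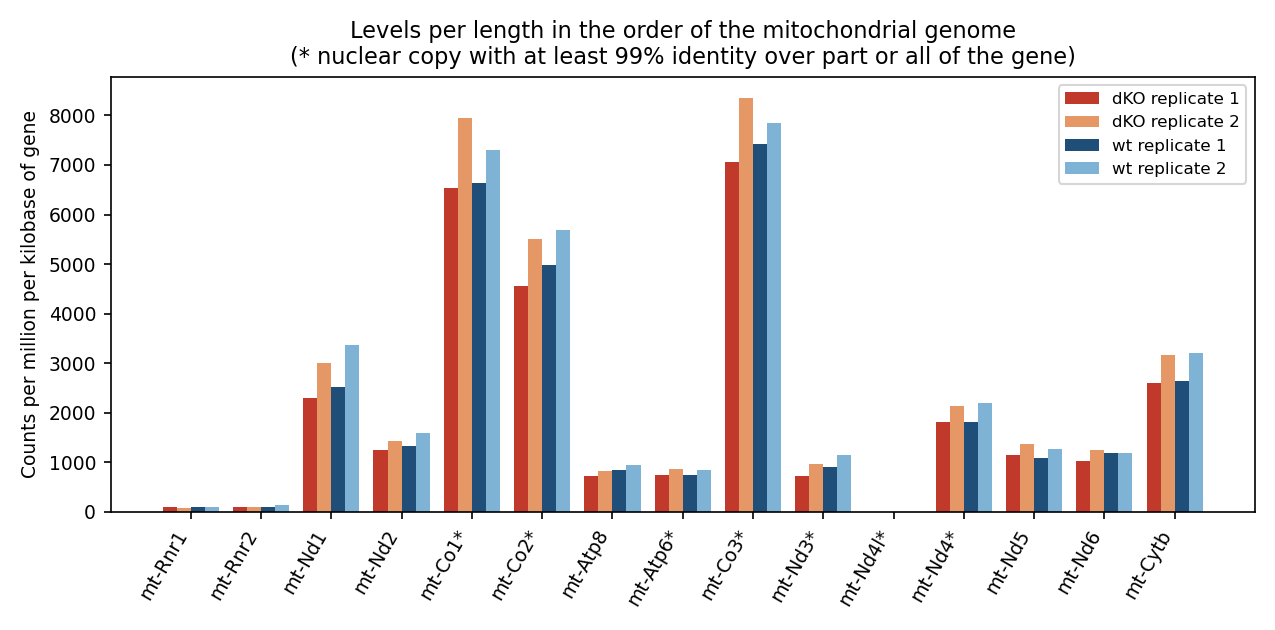
CPM per kilobase of gene for the 2 rRNA and 13 mRNA genes in genome order, 1 bar per library from 0, dKO libraries left of wt libraries. The bars of mt-Co3 and mt-Co1 are the highest, mt-Nd4l has none, and an asterisk marks the 7 genes with a nuclear copy of at least 99% identity over part or all of their length.

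The composition of the mRNA pool was also described, as the share of each gene in the summed mitochondrial mRNA counts of a library, which sets aside how much of a library is mitochondrial. Shares are not independent of each other, since they sum to 100%. Of 12 genes, 2 had shares higher in dKO and 4 lower in dKO without overlap, and 6 overlapped. Scaled in the same way, 12.9% of all tested genes were higher in dKO and 12.7% lower without overlap. The sum moves with the 12 genes themselves and need not move with other genes, so these shares are not a like background. Scaled to library size instead, 33.6% of all tested genes did not overlap in either direction, against 25.6% here. Each of the 6 shares without overlap stands at the smallest p that 2 libraries against 2 allow (exact permutation p = 0.33).

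mt-Co1 took 32.4% and 32.6% of mitochondrial mRNA counts in dKO libraries and 31.6% and 30.5% in wt libraries. mt-Nd5 took 6.71% and 6.61% in dKO libraries and 6.11% and 6.30% in wt libraries. These were the 2 shares that were higher in both dKO libraries.

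mt-Co2 took 9.98% and 9.96% in dKO libraries and 10.5% and 10.5% in wt libraries, where replicates of a genotype differed by far less than the genotypes. mt-Nd2 took 4.12% and 3.93% in dKO libraries and 4.27% and 4.46% in wt libraries. mt-Nd3 took 0.811% and 0.899% in dKO libraries and 0.976% and 1.09% in wt libraries. The fourth lower share was that of mt-Atp8, with 0.478% and 0.448% in dKO libraries and 0.527% and 0.525% in wt libraries.

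On the log2 scale the ratios of mean shares, dKO over wt, were 0.10 for mt-Nd5, 0.06 for mt-Co1, -0.08 for mt-Co2, -0.12 for mt-Nd2, -0.18 for mt-Atp8 and -0.27 for mt-Nd3. mt-Nd3 and mt-Atp8 are the shortest of the mRNA genes with counts, at 348 and 204 bases. The shares of mt-Nd1, mt-Nd4, mt-Nd6, mt-Cytb, mt-Atp6 and mt-Co3 overlapped between genotypes.

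**Figure D4:**
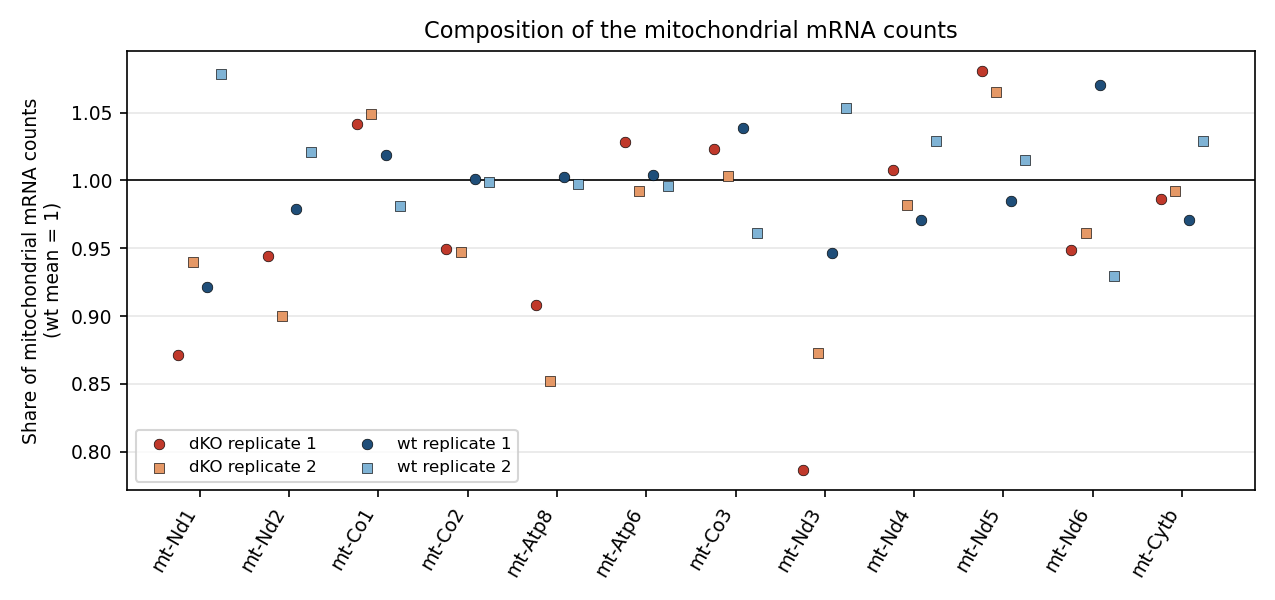
Share of each gene in the summed mitochondrial mRNA counts of a library, divided by the mean share in wt libraries (line at 1), for 12 genes in genome order, with dKO libraries left of wt libraries. Both dKO points lie above both wt points for mt-Co1 and mt-Nd5, and below them for mt-Nd2, mt-Co2, mt-Atp8 and mt-Nd3.

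Mature tRNAs are short, and the 22 tRNA genes span 59 to 75 bases each. Together they had 865 and 933 counts in dKO libraries and 685 and 923 in wt libraries. Of these genes 12 passed the filter. Of the 10 that did not, 2 (mt-Tv and mt-Td) were at 0 in all 4 libraries and the rest had at most 6 counts in any library.

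Most tRNA counts fell on the 8 genes of the minus strand, with 80.3% and 82.7% in dKO libraries and 79.1% and 73.0% in wt libraries. The share was higher in dKO without overlap (exact permutation p = 0.33). As a share of all counts the minus-strand tRNAs overlapped, with 0.00416% and 0.00466% in dKO libraries and 0.00420% and 0.00451% in wt libraries. The plus-strand tRNAs were lower in dKO without overlap, with 0.00102% and 0.000971% in dKO libraries and 0.00111% and 0.00167% in wt libraries (exact permutation p = 0.33). In both contrasts without overlap wt replicate 2 stood apart, and wt replicate 1 lay nearer the dKO libraries than wt replicate 2. The median count of a minus-strand tRNA gene was 24 and 23 in dKO libraries and 20.5 and 33 in wt libraries. The median of the 14 plus-strand tRNA genes was 1.5 and 1.5 in dKO libraries and 2 and 5 in wt libraries. Whether counting used strand is not given in the sources used here, so reads of a minus-strand tRNA and reads of the plus-strand RNA that runs across it cannot be told apart.

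mt-Ts1, a serine tRNA whose gene overlaps the end of mt-Co1 on the other strand, had 390 and 441 counts in dKO libraries and 281 and 331 in wt libraries. In human mitochondria the mRNA of the homologous oxidase gene keeps the antisense of this tRNA at its end. Scaled, mt-Ts1 had 23.9 and 26.3 CPM in dKO libraries and 22.0 and 21.8 CPM in wt libraries, without overlap. Its log2 fold change of 0.20 (SE 0.15, interval -0.18 to 0.58, edgeR adjusted p = 0.972) was the single positive one among the 12 tRNAs. Per kilobase it stood at 5.31% and 4.79% of mt-Co1 in dKO libraries and 4.80% and 4.32% in wt libraries, with overlap.

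mt-Te, a glutamate tRNA next to mt-Nd6, had 166 and 210 counts in dKO libraries and 150 and 189 in wt libraries (log2 fold change -0.09, interval -0.62 to 0.44). mt-Tl1, the leucine tRNA between mt-Rnr2 and mt-Nd1 and the plus-strand tRNA with the most counts, had 105 and 131 counts in dKO libraries and 79 and 130 in wt libraries (-0.05, interval -0.75 to 0.66). The genotypes overlapped in CPM for both.

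The lowest values were those of 4 plus-strand tRNAs. mt-Ts2, which reads serine codons, had 6 and 4 counts in dKO libraries and 12 and 19 in wt libraries, or 0.368 and 0.239 CPM against 0.938 and 1.25 CPM. The genotypes did not overlap, and the log2 fold change was -1.83 (SE 0.55, interval -3.20 to -0.46; edgeR unadjusted p = 0.0173, edgeR adjusted p = 0.723). mt-Tl2, a leucine tRNA, had 16 and 5 counts in dKO libraries and 16 and 19 in wt libraries (-0.96, interval -2.53 to 0.61).

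mt-Th, the histidine tRNA, had 22 and 5 counts in dKO libraries and 11 and 28 in wt libraries (-0.73, interval -2.65 to 1.20), with overlap. The 3 adjoining genes mt-Th, mt-Ts2 and mt-Tl2 summed to 44 and 14 counts in dKO libraries and 39 and 66 in wt libraries. As shares of all counts the sums did not overlap, and dKO replicate 2 was the lowest. Without dKO replicate 2 the log2 fold change was -0.34 for mt-Tl2 and -0.0085 for mt-Th, without dKO replicate 1 it was -2.03 and -2.16, and without wt replicate 2 it was -0.96 and -0.063. mt-Tg, the glycine tRNA, had 14 and 10 counts in dKO libraries and 16 and 26 in wt libraries (-1.02, interval -2.19 to 0.14, edgeR adjusted p = 0.907).

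Among the other tRNAs tested, mt-Ta (-0.26), mt-Tn (-0.48), mt-Tc (-0.07), mt-Ty (-0.05) and mt-Tp (-0.58) are minus-strand genes with 12 to 52 counts per library. Of the 12 tRNAs, 5 were lower and 1 was higher without overlap in CPM, against 16.4% and 17.2% of all tested genes (33.6% in either direction). The median over the 12 was -0.37, and 4 of 12 intervals lay within 1 of 0, so for the other 8 a doubling or its inverse lies inside the interval.

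**Figure D5:**
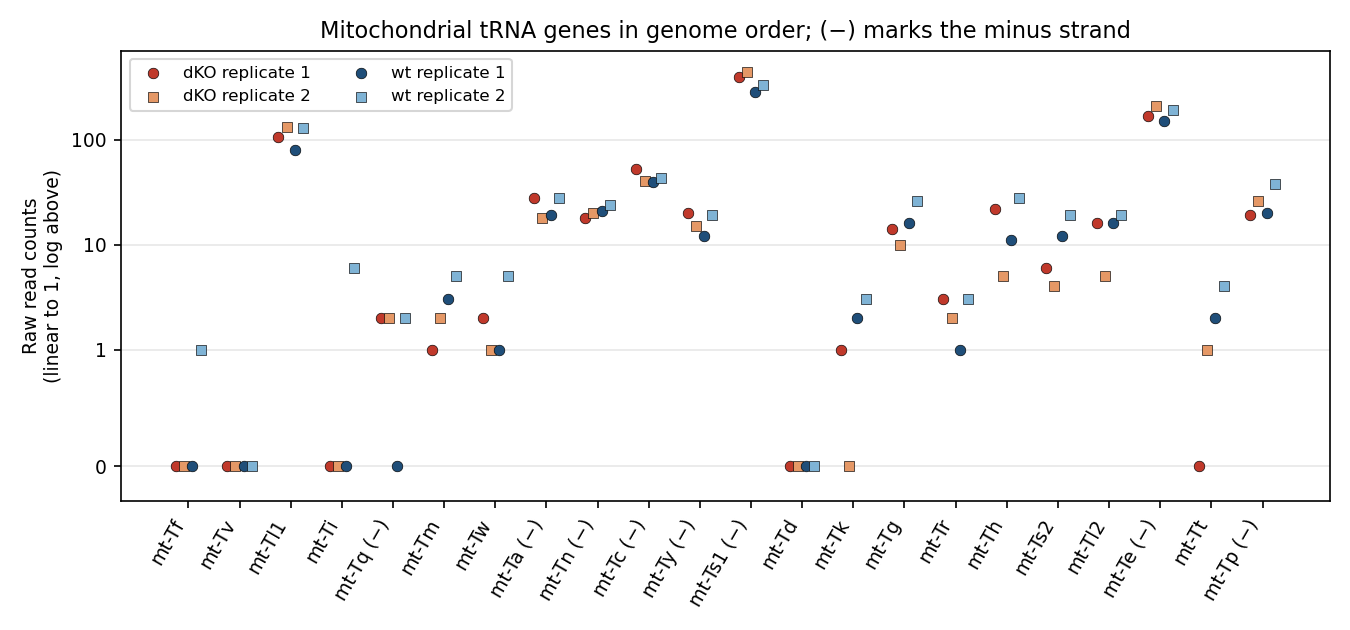
Raw read counts of the 22 mitochondrial tRNA genes in genome order in each library, on an axis that is linear up to 1 and logarithmic above, with dKO libraries left of wt libraries and minus-strand genes marked. mt-Ts1 lies highest with 281 to 441 counts, and mt-Th, mt-Ts2 and mt-Tl2 have 5, 4 and 5 counts in dKO replicate 2.

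Nuclear genes that make and use these RNAs were listed by role, and with genotype as the only term and all 4 libraries none passed the test in any list in edgeR. Of 19 genes for transcription and replication of mitochondrial DNA, 7 had a positive and 12 a negative log2 fold change (median -0.07). Tfb1m, which methylates the small-subunit rRNA, had 10.5 and 11.8 CPM in dKO libraries and 16.03 and 16.63 CPM in wt libraries (-0.55, SE 0.19, interval -1.02 to -0.08, edgeR adjusted p = 0.794). It was the 1 gene of the list with an unadjusted p under 0.05 in edgeR, and its genotypes did not overlap.

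Of 36 genes for RNA processing, modification and decay, 14 were positive and 22 negative (median -0.06), with 0 at an unadjusted p under 0.05. Lrpprc, which stabilises mitochondrial mRNAs, had 304 and 233 CPM in dKO libraries and 266 and 237 CPM in wt libraries (0.09), and Ptcd3, a protein of the mitochondrial ribosome, had 261 and 230 CPM in dKO libraries and 256 and 247 CPM in wt libraries (-0.04). Of 11 translation factors, 3 were positive and 8 negative (median -0.12), and 0 had an unadjusted p under 0.05. The elongation factor Gfm1 had a log2 fold change of -0.12 and the ribosome recycling factor Gfm2 of 0.14.

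Of 77 tested mitochondrial ribosomal proteins, 19 were positive and 58 negative (75.3%, against 50.3% of all tested genes), with a median of -0.06. Without overlap, 22 were lower in dKO (28.6%) and 3 higher (3.90%), against 16.4% and 17.2% of all genes. Mrpl58, which releases peptides from stalled ribosomes, had 23.9 and 24.9 CPM in dKO libraries and 31.6 and 31.5 CPM in wt libraries (-0.37, unadjusted p = 0.0416, edgeR adjusted p = 0.870). The median was -0.0010 at its nearest to 0 with 1 library left out.

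Of 22 aminoacyl-tRNA synthetases, 8 were positive and 14 negative (median -0.06), with 0 at an unadjusted p under 0.05. Lars2, which charges the leucine tRNAs, had 420 and 385 CPM in dKO libraries and 1002 and 365 CPM in wt libraries (-0.76, interval -1.86 to 0.33), where wt replicate 1 stood apart and the genotypes overlapped. Without wt replicate 2 it was called lower (log2 fold change -1.31, edgeR adjusted p = 0.00885), and without wt replicate 1 its value was 0.13. Gars, which charges glycine tRNAs in cytoplasm and mitochondria, had a log2 fold change of 0.17.

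Of 13 tested regulators of mitochondrial biogenesis, 11 were positive and 2 negative (median 0.05). Ppargc1b, a coactivator of nuclear genes for mitochondrial proteins, had 3.81 and 5.25 CPM in dKO libraries and 2.11 and 2.04 CPM in wt libraries (1.12, SE 0.34, interval 0.27 to 1.98, unadjusted p = 0.0183, edgeR adjusted p = 0.723). Of 82 nuclear-encoded respiratory chain subunits, 31 were positive and 51 negative (median -0.03). Without overlap, 24 were lower in dKO (29.3%) and 7 higher (8.54%), against 16.4% and 17.2% of all tested genes. Of 11 translation factors 3 were lower and 1 higher without overlap (27.3% and 9.09%), and of 22 synthetases 5 and 3 (22.7% and 13.6%). Transcription and replication had 5 and 2 of 19 (26.3% and 10.5%), and RNA processing 8 and 3 of 36 (22.2% and 8.33%). The biogenesis regulators had 2 lower and 3 higher of 13 (15.4% and 23.1%). In lists this small such shares rest on few genes, and whether any list differs from all tested genes was not tested. Cox7a2, a small subunit of complex IV, had 46.4 and 58.6 CPM in dKO libraries and 78.8 and 92.0 CPM in wt libraries (-0.70, SE 0.17, interval -1.11 to -0.29, unadjusted p = 0.00618, edgeR adjusted p = 0.575). Its isoform gene Cox7a1 had 3.38 and 4.59 CPM in dKO libraries and 5.63 and 9.40 CPM in wt libraries (-0.92, unadjusted p = 0.0474, edgeR adjusted p = 0.888). Summed, the listed respiratory chain genes had 11205 and 11568 CPM in dKO libraries and 11879 and 11341 CPM in wt libraries, with overlap.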

How the data were processed

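Trizol served for total RNA and an Illumina TruSeq RNA kit for the libraries, per the labels' protocols. Raw counts by Ensembl gene were deposited by the authors in 1 table of 4 library columns. The submitters' processing notes name TopHat2 2.0.6, TopHat and HTSeq without saying what each did. Genome build, annotation, strand setting and the treatment of reads with several matches were not given in the sources used here. Start and end of all 37 mitochondrial genes were the same in the table and in GENCODE M21, which gave symbols, biotypes and sequences.

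In edgeR 4.0.16 (R 4.3.3), filterByExpr removed low genes, TMM factors scaled the libraries, and a robust quasi-likelihood model of genotype alone was tested, with p-values adjusted by Benjamini-Hochberg over 14027 genes at 0.05. Intervals come from the F statistic. The scripts were tested on simulated counts. Shares were compared by exact two-sided permutation. Nuclear copies were found with blastn 2.17.0. Alternatives were other scalings and filters, a replicate block, each library left out, DESeq2 1.42.0, limma-voom (limma 3.58.1), an adjusted p of 0.01, other denominators and lengths without shared bases. All mitochondrial mRNAs and rRNAs and every tested tRNA are named, and of each nuclear list the members with the largest changes at an unadjusted p under 0.05, or else the 2 with the highest CPM, and nuclear copies with counts. The members and lists were chosen with earlier results of these data known. Of the nuclear list symbols, 2 translation factor names had no match. Library totals of 12899964 to 16697970 counts set the precision, and floors cover counting error only.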

Additional observations from a re-analysis of the deposited data

How the results depend on the processing

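No mitochondrial gene was called under any alternative run except with a replicate block, where 1 was, mt-Ts2 (edgeR adjusted p = 0.0299, log2 fold change -1.83; its highest adjusted p over the alternatives was 0.9998). The labels do not say that the replicate numbers pair the libraries, while across genes the deviations of libraries with 1 number correlated (r = 0.68), which hints at pairing without any label for it. With the replicate block 1299 of 14027 genes were called (9.26%) in place of 12, and 1 gene each in the transcription and replication (Tfb1m, edgeR adjusted p = 0.0235), aminoacyl-tRNA synthetase (Vars2, 0.0151), ribosomal protein (Mrpl58, 0.0492) and biogenesis lists (Ppargc1b, 0.0105) and 2 in the respiratory chain list (Cox7a2, 3.5e-05, and Cox7a1, 0.0103). The block changed no other call of a mitochondrial gene or listed nuclear gene. After mt-Ts2, the lowest adjusted p-values of mitochondrial genes with the block were those of mt-Nd3 (edgeR adjusted p = 0.0502) and mt-Rnr1 (0.0806). In place of 12, DESeq2 called 96 genes, limma-voom called 6, edgeR without a low-count filter called 80, a threshold of 0.01 left 4, and leaving out a library gave 18 to 27. Leaving out 1 library gave 0 to 1 called synthetase genes (Lars2), and medians of -0.19 to 0.086 for mitochondrial mRNAs, -0.13 to 0.0035 for synthetases, -0.064 to 0.0047 for respiratory chain subunits, -0.20 to -0.044 for transcription and replication, -0.085 to 0.027 for RNA processing, -0.16 to -0.033 for translation factors, -0.13 to -0.0010 for ribosomal proteins and 0.030 to 0.13 for biogenesis regulators. With 1 library left out the difference in share, dKO minus wt, was -0.442 to 0.327 percentage points for mRNAs, -0.0108 to -0.00116 for rRNAs, -0.000774 to 9.3e-05 for tRNAs and -0.447 to 0.321 for all mitochondrial genes. The log2 fold changes of 16 members changed sign under at least 1 alternative, with ranges over left-out libraries of -0.62 to 0.045 for mt-Rnr2, -0.27 to 0.21 for mt-Tl1, -0.35 to 0.072 for mt-Nd1, -0.26 to 0.0022 for mt-Nd2, -0.63 to 0.049 for mt-Ta, -0.29 to 0.13 for mt-Tc, -0.29 to 0.18 for mt-Ty, -0.085 to 0.20 for mt-Co1, -0.22 to 0.048 for mt-Co2, -0.11 to 0.11 for mt-Atp6, -0.11 to 0.13 for mt-Co3, -0.16 to 0.13 for mt-Nd4, -0.035 to 0.22 for mt-Nd5, -0.22 to 0.076 for mt-Nd6, -0.24 to 0.056 for mt-Te and -0.17 to 0.12 for mt-Cytb. With total counts only, mt-Atp6 had -0.012 and mt-Co3 -0.0019. A library left alone in its genotype was assumed to vary like the others. The tRNA results rest on few counts.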
